A study of Mus musculus with 18 samples.

Results

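The genes of endoplasmic reticulum (ER) stress and protein folding were followed in sorted mouse keratinocytes with and without Zfp36, from untreated skin to papillomas. The 35 genes were a list given by symbol, and each symbol matched 1 row of a table of read counts for 52636 genes. By role, 8 were sensors and transcription factors, 9 chaperones and their cofactors, 7 lectin chaperones and oxidoreductases, 4 genes of ER-associated degradation, 2 genes of translocation and 5 genes of the PERK-ATF4 output. Control mice carried floxed Zfp36 alleles (Zfp36 fl/fl) on a C57BL/6 background, and their littermates carried the same alleles with a Cre recombinase driven by the human keratin 14 promoter (Zfp36 ΔK14), which acts in basal keratinocytes. The mice were 8 weeks old at the start of the tumor protocol, in which DMBA, a mutagen, was painted on shaved back skin and TPA, a phorbol ester that promotes tumors, was then applied repeatedly. For each genotype the cells were taken from mock-treated skin, from painted skin without tumors beside the lesions (treated skin) and from papillomas (tumors), with 3 columns per group. They were sorted as EpCAM positive after exclusion of CD45, CD140a and CD31, although the labels name whole skin as the source and call the treated samples tumoral keratinocytes. Mock ΔK14 columns 2 and 3 held the same values throughout and were treated as a single library, so n = 2 in that group and n = 3 in the others.

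Secreted and membrane proteins fold in the ER, where chaperones hold the chain, lectin chaperones read its sugars and oxidoreductases make its disulfide bonds. When unfolded protein accumulates, 3 sensors in the ER membrane respond. ATF6 is cut into a transcription factor, IRE1 splices the mRNA of XBP1, and PERK phosphorylates eIF2α, which slows translation in general and favors that of ATF4. ATF6 and XBP1 raise chaperone and degradation genes, many of them through the ER stress element of their promoters, and ATF4 raises amino acid synthesis genes and CHOP. Zfp36 encodes tristetraprolin (TTP), which binds AU-rich elements near the 3′ end of mRNAs and hastens their decay. Keratinocytes make large amounts of membrane and extracellular protein, and the same pathway is known to be active in many tumors.

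Promoter sequences of RefSeq (GRCm38.p6), reaching from 250 bases before to 50 bases after the gene start, were at hand for 30 of the 35 genes, all but Atf6, Ern2, Hyou1, Manf and Ppp1r15b. The ER stress element, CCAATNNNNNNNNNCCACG on either strand, was found in 37 of 27025 genes with a promoter (0.137%) and in 9 of these 30 (30.0%): Hspa5, Hsp90b1, Dnajc3, Creld2, Calr, Canx, Pdia6, Ero1lb and Syvn1. A shorter form, ATTGGNCCACG, was found in 0.0365% of 32851 promoter windows and in 2 members, Dnajb11 and Herpud1. The element was described on genes of this kind, so its share among them is a description of the list. These sites are shown because chaperones and oxidoreductases make up most of the members that changed in tumors. They are read 5′ to 3′ on the strand of the match, with the fixed bases in capitals. In this list plus and minus are relative to the direction of the gene. Hsp90b1, Calr and Canx lie on the minus strand of their chromosomes, so their sites are on the opposite chromosome strand to the one named.
Hspa5, 65 to 47 bases before the start, chr2:34772025-34772043, plus strand: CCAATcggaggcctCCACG
Hsp90b1, distal site, chr10:86705638-86705656, plus strand: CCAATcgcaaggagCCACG
Hsp90b1, proximal site, chr10:86705533-86705551, minus strand: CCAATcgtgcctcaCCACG
Calr, chr8:84847075-84847093, minus strand: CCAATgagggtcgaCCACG
Canx, chr11:50325800-50325818, plus strand: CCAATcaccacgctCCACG
Pdia6, chr12:17266491-17266509, plus strand: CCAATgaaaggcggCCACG
Dnajc3, chr14:118937827-118937845, plus strand: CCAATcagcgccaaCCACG
Creld2, chr15:88819520-88819538, minus strand: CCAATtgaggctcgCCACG
Ero1lb, chr13:12565682-12565700, minus strand: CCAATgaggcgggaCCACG
Syvn1, chr19:6046532-6046550, plus strand: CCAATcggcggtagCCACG
Dnajb11, shorter form, 7 to 17 bases after the start base, chr16:22857852-22857862, plus strand: ATTGGcCCACG
Herpud1, shorter form, chr8:94386377-94386387, plus strand: ATTGGgCCACG
The 9 nonfixed bases differed at every site, and Hsp90b1 alone held the full element at 2 places in its window.

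The AU-rich heptamer TATTTAT, a form of the sequence that TTP binds, was counted over the 3′ untranslated region, taking for each gene its longest GENCODE form. It was found in 12 of the 35 genes (34.3%) and in 27.4% of 21075 genes, with median lengths of 988 and 1085 bases. Ppp1r15a carried 4 overlapping copies in a region of 77 bases, Ern1 and Ero1lb carried 3 each, and Creb3l2 carried 2. The sites of Ppp1r15a (chr7:45522916-45526268, minus strand) and of Creb3l2 (chr6:37327255-37442146, minus strand), in the same build, are shown because the levels of both genes in tumors return below, with the heptamer in capitals.
Ppp1r15a, 23 bases into the 3′ untranslated region: tcctattattTATTTATttatttattt
Creb3l2, 700 bases in: ttgtaaatagTATTTATtagcttgctc
Creb3l2, 1935 bases in: cagtgccagaTATTTATacatcataaa

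Total counts ran from 2808550 to 9617985 over the 17 libraries. Levels are in CPM, the count of a gene scaled to a common library size after adjustment by TMM, whose factors were 0.747 to 0.920 in the 6 tumor libraries and 0.955 to 1.24 in the other 11. Zfp36, the targeted gene, was lower in every ΔK14 library than in any fl/fl library, at 16.9 and 37.7 CPM in mock skin, 26.5, 29.8 and 15.7 in treated skin and 18.5, 12.9 and 10 in tumors, against 152, 698 and 659, 374, 496 and 256 and 219, 182 and 235 in fl/fl cells. All 9 keratinocyte markers averaged over 10 CPM in every group, while Ptprc stayed at or below 1.45 CPM and the plasma cell genes Jchain and Mzb1 at or below 0.636 CPM in every library. The 8 leukocyte markers summed to 65.9 to 101 CPM in ΔK14 tumors, 16.3 to 34.3 in fl/fl tumors and 215.5 in treated ΔK14 replicate 3, most of it Cd74 in those libraries. The 6 plasma cell markers summed to 713.0 to 1257 CPM in tumors and 437.7 to 628.4 in treated skin, nearly all of it Sdc1 and Prdm1. Several libraries stood apart. The fl/fl tumors 2 and 3 carried 4847 and 8259 CPM summed over 6 sebocyte markers, against 384.9 in fl/fl tumor 1 and 377.8 to 497.4 in ΔK14 tumors, and their 9 keratinocyte markers summed to 13210 and 14090 CPM against 35410 in fl/fl tumor 1 and 30230 to 32310 in ΔK14 tumors. Most of the sum in fl/fl tumor 1 was Krt5 and Krt14. Epcam and Cdh1 of the same list went the other way, at 167.2, 478.5 and 335.2 and 592.6, 912.4 and 715.5 CPM over fl/fl tumors 1, 2 and 3. Mock replicate 1 of each genotype held the hair follicle keratin Krt25 at 449 and 623 CPM, against at most 1.76 in the other mock libraries, and Krt5 at 1486 and 1424 CPM against 6359 to 7300. Krt15, another hair follicle marker, went the other way, at 264 and 281 CPM there against 1501 to 2477. The 7 hair follicle markers summed to 1460 and 1569 CPM in these libraries and to 1619 to 2592 in the other mock libraries.

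Tumors held higher levels of most of these genes than treated skin in both genotypes. In ΔK14 tumors 22 of the 34 members that could be tested passed an adjusted p of 0.05 upward and 2 downward by edgeR's quasi-likelihood test with Benjamini-Hochberg adjustment, where 17.6% and 19.2% of all 15289 genes tested did so. Among fl/fl tumors 14 of 34 passed upward and 1 downward, beside 12.5% and 12.6% of 15362 genes. A gene was called where its fold change was also over 2. That left 14 called higher and 1 lower in ΔK14 tumors, beside 10.5% and 15.5% of all genes, and 10 called higher and 1 lower in fl/fl tumors, beside 7.50% and 10.5%. The median log2 fold change of the members was 0.93 in ΔK14 and 0.62 in fl/fl tumors, and that of all genes was -0.03 and -0.02. In 25 members every ΔK14 tumor lay above every ΔK14 treated library, beside 27.5% of all genes, and 19 members showed this in fl/fl cells, beside 20.7%. Ern2 was left out of every test, and Trib3 and Chac1 reached the filter on low counts mainly through the tumors, where they are high. Trib3 is nevertheless counted among the called and nonoverlapping members of both genotypes, and Chac1 among the nonoverlapping ones in ΔK14 cells. Leaving out 1 library at a time gave 13 to 17 calls in ΔK14 tumors, with 9 of the 15 called genes called in all 6 fits. Among fl/fl tumors it gave 6 to 12, with 6 of 11 in all 6 fits (Atf4, Hspa5, Dnajb9, Canx, Trib3 and Asns). The fl/fl count was 6 without treated fl/fl 1, 2 or 3 and 7 without tumor fl/fl 3. Calls over all genes fell in these fits too, from 1152 higher and 1612 lower. They were 503 and 603, 692 and 805, and 656 and 861 without each treated library, and 815 and 863 without tumor 3. The ΔK14 fits without 1 library called 1269 to 1984 genes higher, beside 1608 with all libraries.

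**Figure D1:**
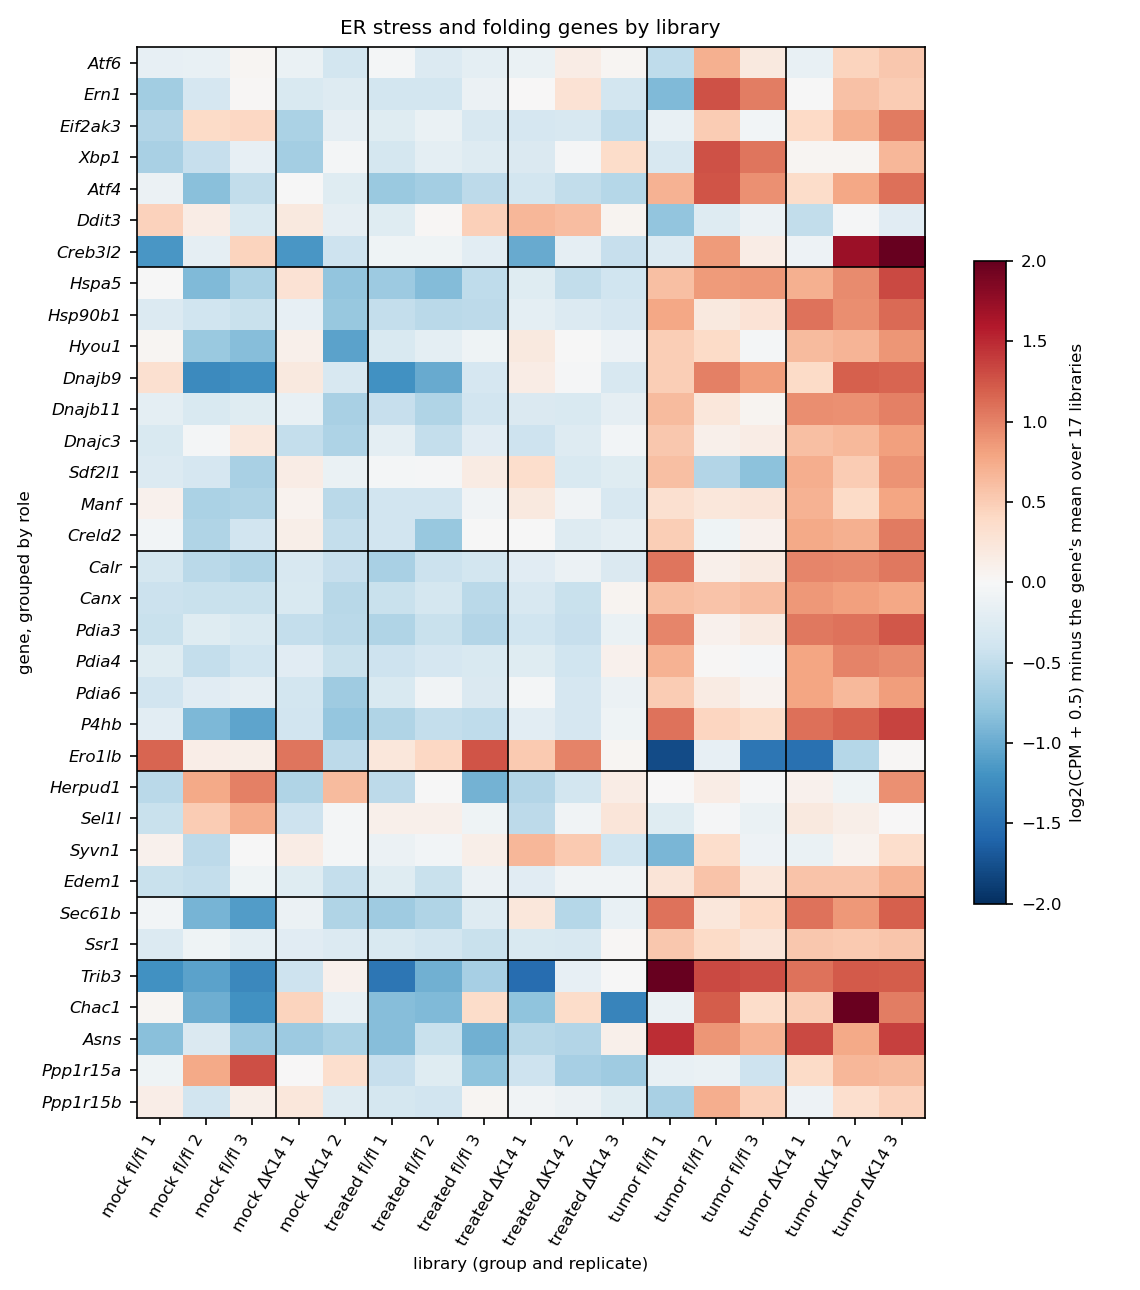
Level of 34 ER stress and folding genes (rows, grouped by role, Ern2 left out) in the 17 libraries (columns, grouped by genotype and condition), as log2(CPM + 0.5) minus the gene's mean over all libraries. Most chaperones and oxidoreductases are red in the 6 tumor columns. Ero1lb is blue in most of them and Sdf2l1 is blue in fl/fl tumors 2 and 3. These 2 tumors are paler than fl/fl tumor 1 for Calr, Pdia3 and Pdia4.

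The counts depended on how library sizes were set. With total counts in place of TMM the median of all genes moved to -0.50 in fl/fl and -0.47 in ΔK14 tumors, and the calls over all genes moved from 1152 higher and 1612 lower to 524 and 3173 in fl/fl, and from 1608 and 2365 to 930 and 4067 in ΔK14. On that scale 4 members were called higher in fl/fl tumors (Atf4, Dnajb9, Trib3 and Asns) and 2 in ΔK14 tumors (Creb3l2 and Trib3), and Ero1lb stayed lower in both, joined by Ddit3 in ΔK14 tumors. The median of the members relative to that of all genes was 0.65 with TMM and 0.62 with total counts in fl/fl tumors, and 0.96 and 0.95 in ΔK14 tumors, so the changes below are relative to the other genes of the same cells. No called member changed direction. Nothing in the sources says that replicates were separate animals, so p-values measure the spread between these samples, which may be technical. Markers of other cells also differed between tumors and treated skin of either genotype. The 7 hair follicle markers summed to 420.8 to 799.1 CPM in tumors and 763.1 to 1464 in treated skin, the 6 fibroblast markers to 30.2 to 386.5 and 369.6 to 948.2, and the 6 melanocyte markers to 11.8 to 39.9 and 61.5 to 372.5. Within the hair follicle list Sox9 went the other way, at 253.8 to 654.1 CPM in tumors and 77.5 to 184.2 in treated skin. Cd34 did so in ΔK14 cells, at 57.55 to 230.6 against 5.39 to 26.3 CPM. The part of such cells in the results was not tested. In sorted bulk cells, fewer cells of a type and less RNA per cell cannot be told apart.

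**Figure D2:**
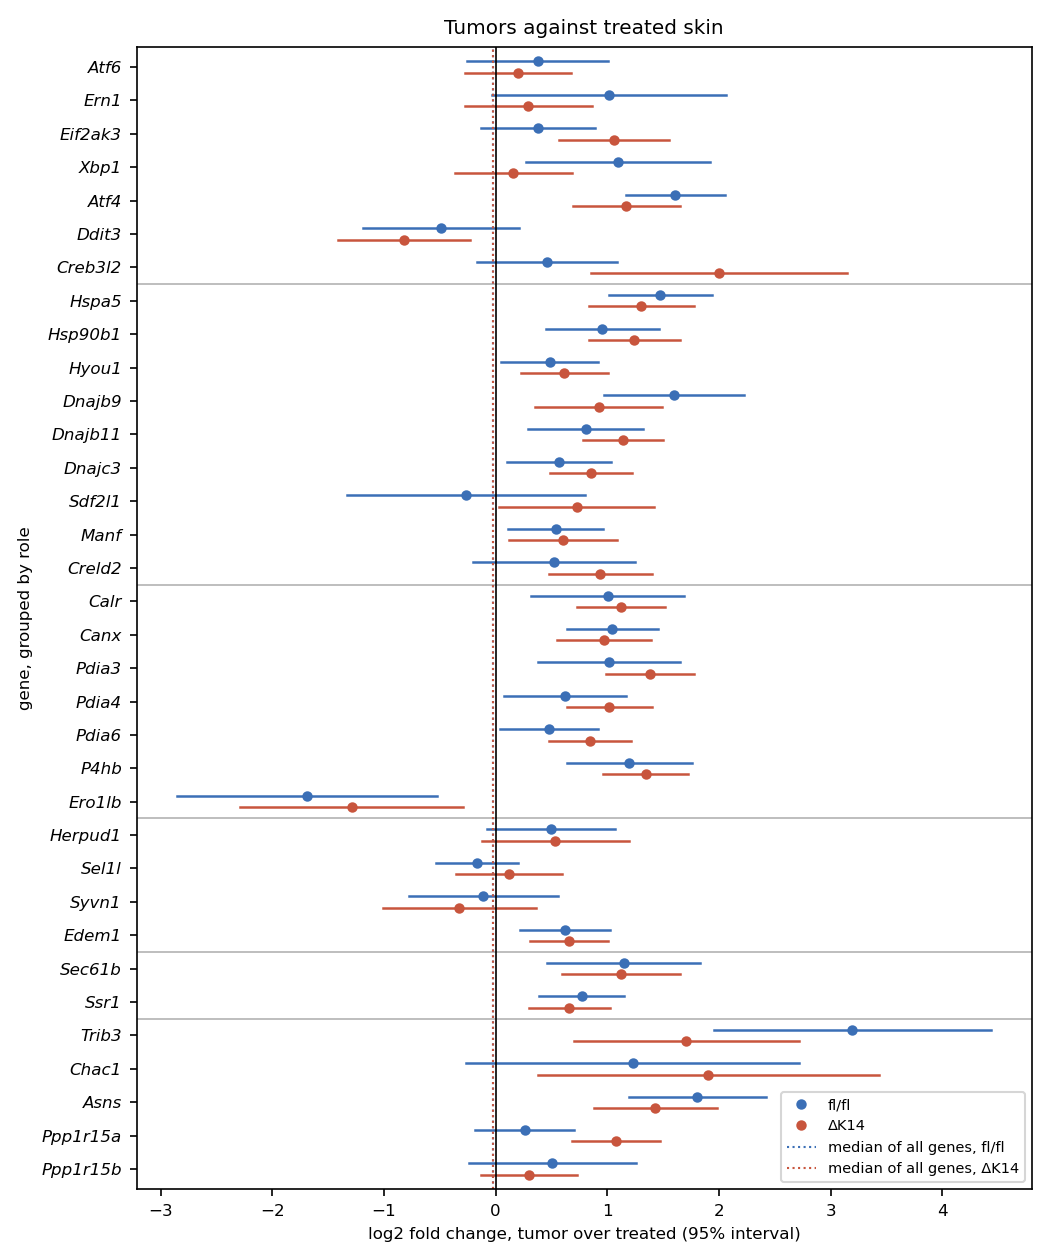
Log2 fold change of tumors over treated skin (x axis) for 34 genes (y axis, grouped by role) in fl/fl (blue) and ΔK14 (red) cells. Points are fitted values, bars are 95% intervals and dotted lines are the median of all genes. Most intervals lie above 0 and both intervals of Ero1lb lie below it.

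Among the sensors, Eif2ak3, which encodes PERK, was at 18.0, 18.2 and 15.8 CPM in ΔK14 treated skin and 30.3, 37.8 and 47.4 in ΔK14 tumors, and every tumor was above every treated library. It rose (log2 fold change 1.06, SE 0.22, adjusted p = 0.0064, edgeR's quasi-likelihood test). In fl/fl cells it was at 19.1, 20.7 and 18.1 and 20.5, 32.6 and 21.9 CPM and did not pass (adjusted p = 0.236 by edgeR). Atf6 ran from 57.6 to 135 CPM over all libraries and passed in no comparison. Ern1, which encodes IRE1, and Xbp1, whose mRNA IRE1 splices, shared a split among the fl/fl tumors. Ern1 was at 23.8, 108 and 90.3 CPM in these tumors and Xbp1 at 52.9, 162 and 139.6, so that in both genes fl/fl tumor 1 was the lowest and tumors 2 and 3 were above all ΔK14 tumors, which held 44.1, 67.0 and 63.0 and 68.0, 68.3 and 106 CPM. The higher pair are the libraries with the high sebocyte markers, and the part of those cells in the values was not tested. Neither gene passed against treated skin (adjusted p = 0.133 and 0.057 in fl/fl, 0.381 and 0.617 in ΔK14, edgeR), and without fl/fl tumor 1 Xbp1 was called lower in ΔK14 than in fl/fl tumors (log2 fold change -1.01, adjusted p = 0.0092, edgeR), in a fit that called 1132 genes higher and 1481 lower of 15463. Counts per gene do not separate spliced from unspliced Xbp1. Ern2, the IRE1 paralog of mucous epithelia, had at most 0.655 CPM in any library.

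Atf4, the transcription factor favored when eIF2α is phosphorylated, rose in tumors of both genotypes. It was at 124, 130.2 and 145 CPM in fl/fl treated skin and 337, 497 and 391 in fl/fl tumors (log2 fold change 1.61, SE 0.19, adjusted p = 0.0024, edgeR). In ΔK14 cells it was at 161, 148 and 139.5 and 269.7, 355 and 449 CPM (log2 fold change 1.17, SE 0.21, adjusted p = 0.004, edgeR), and in neither genotype did the groups overlap. Its call held in all 6 fits that left out 1 library, in both genotypes. Ddit3, which encodes CHOP, the transcription factor linked to cell death under lasting ER stress, did not follow Atf4. It was at 25.6, 24.7 and 16.5 CPM in ΔK14 treated skin and 11.1, 15.6 and 13.6 in ΔK14 tumors, each tumor below each treated library, and it fell (log2 fold change -0.82, SE 0.26, adjusted p = 0.037, edgeR) by less than the fold required for a call. In fl/fl cells it was at 13.4, 16.1 and 22.4 and 9.05, 13.2 and 14.6 CPM and did not pass (adjusted p = 0.264, edgeR). Creb3l2, an ER membrane protein that is cut into a transcription factor of the secretory pathway, rose in ΔK14 tumors, where it was at 23.2, 83.0 and 116 CPM against 12.1, 21.9 and 17.9 in treated skin (log2 fold change 2.00, SE 0.50, adjusted p = 0.015, edgeR). The spread was wide, with the first ΔK14 tumor near the highest treated library. It was at 20.5, 45.5 and 27.7 CPM in fl/fl tumors and 23.4, 23.5 and 21.4 in fl/fl treated skin (adjusted p = 0.243, edgeR).

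The chaperones were among the most abundant members. Per kilobase of exon, Pdia3, Canx, Hspa5, Hsp90b1, Calr and P4hb led the list in fl/fl mock cells with means of 122, 112, 96.0, 91.2, 90.6 and 76.0 CPM per kb, and Ero1lb, Chac1, Trib3 and Ern2 closed it at 1.76, 0.539, 0.481 and 0.0124. Hspa5 encodes BiP, the HSP70 of the ER, which also holds the 3 sensors inactive. It was at 336, 304 and 393 CPM in fl/fl treated skin and 846, 1013 and 1024 in fl/fl tumors (log2 fold change 1.48, SE 0.20, adjusted p = 0.0032, edgeR). In ΔK14 cells it was at 470.1, 396 and 422 and 912, 1072 and 1390 CPM (log2 fold change 1.31, SE 0.21, adjusted p = 0.0024, edgeR). The groups did not overlap in either genotype, and the call held in each of 6 fits that left out 1 library. Hsp90b1 encodes GRP94, the HSP90 of the ER. It was at 415, 391 and 375 CPM in ΔK14 treated skin and 1007, 907 and 1041 in ΔK14 tumors (log2 fold change 1.24, SE 0.18, adjusted p = 0.0017, edgeR). In fl/fl cells it was at 339.9, 327 and 330.2 and 809.8, 543 and 576 CPM, and it rose by just under the fold required (log2 fold change 0.96, SE 0.22, adjusted p = 0.019, edgeR).

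Both J proteins Dnajb9 and Dnajb11, which serve BiP, passed in both genotypes. Dnajb9 (ERdj4) was at 38.9, 45.2 and 71.6 CPM in fl/fl treated skin and 128, 184 and 163 in fl/fl tumors (log2 fold change 1.60, SE 0.27, adjusted p = 0.0071, edgeR). In ΔK14 cells its treated level was already 101, 89.8 and 72.5 CPM and its tumor level 119, 208 and 205, and it rose by less than the fold required (log2 fold change 0.92, SE 0.25, adjusted p = 0.02, edgeR). Dnajb11 (ERdj3) was at 29.6, 29.2 and 32.0 CPM in ΔK14 treated skin and 69.3, 68.6 and 73.0 in ΔK14 tumors (log2 fold change 1.14, SE 0.16, adjusted p = 0.0015, edgeR), and at 26.2, 23.7 and 27.7 and 56.7, 42.4 and 37.5 CPM in fl/fl cells (log2 fold change 0.81, SE 0.22, adjusted p = 0.034). Neither gene passed the test of the difference between the genotypes in this change (adjusted p = 0.485 and 0.588, edgeR). Dnajc3 (p58IPK), Creld2 and the nucleotide exchange factor Hyou1 passed in ΔK14 tumors and not in fl/fl tumors, with log2 fold changes of 0.86, 0.94 and 0.62 against 0.57, 0.52 and 0.49 in fl/fl, and the difference did not pass for any of them (adjusted p = 0.636, 0.644 and 0.842, edgeR). Manf, a secreted cofactor of BiP, was at 64.1, 53.1 and 44.5 and 90.7, 72.8 and 96.6 CPM in ΔK14 treated skin and tumors and did not pass (adjusted p = 0.054, edgeR). Sdf2l1 was low in fl/fl tumors 2 and 3, at 8.57, 3.45 and 2.86 CPM over the 3 fl/fl tumors against 9.36, 7.99 and 10.6 in ΔK14 tumors, and was called higher in ΔK14 tumors in the same fit without fl/fl tumor 1 (log2 fold change 1.43, adjusted p = 0.015, edgeR) but not with all libraries (adjusted p = 0.439).

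**Figure D3:**
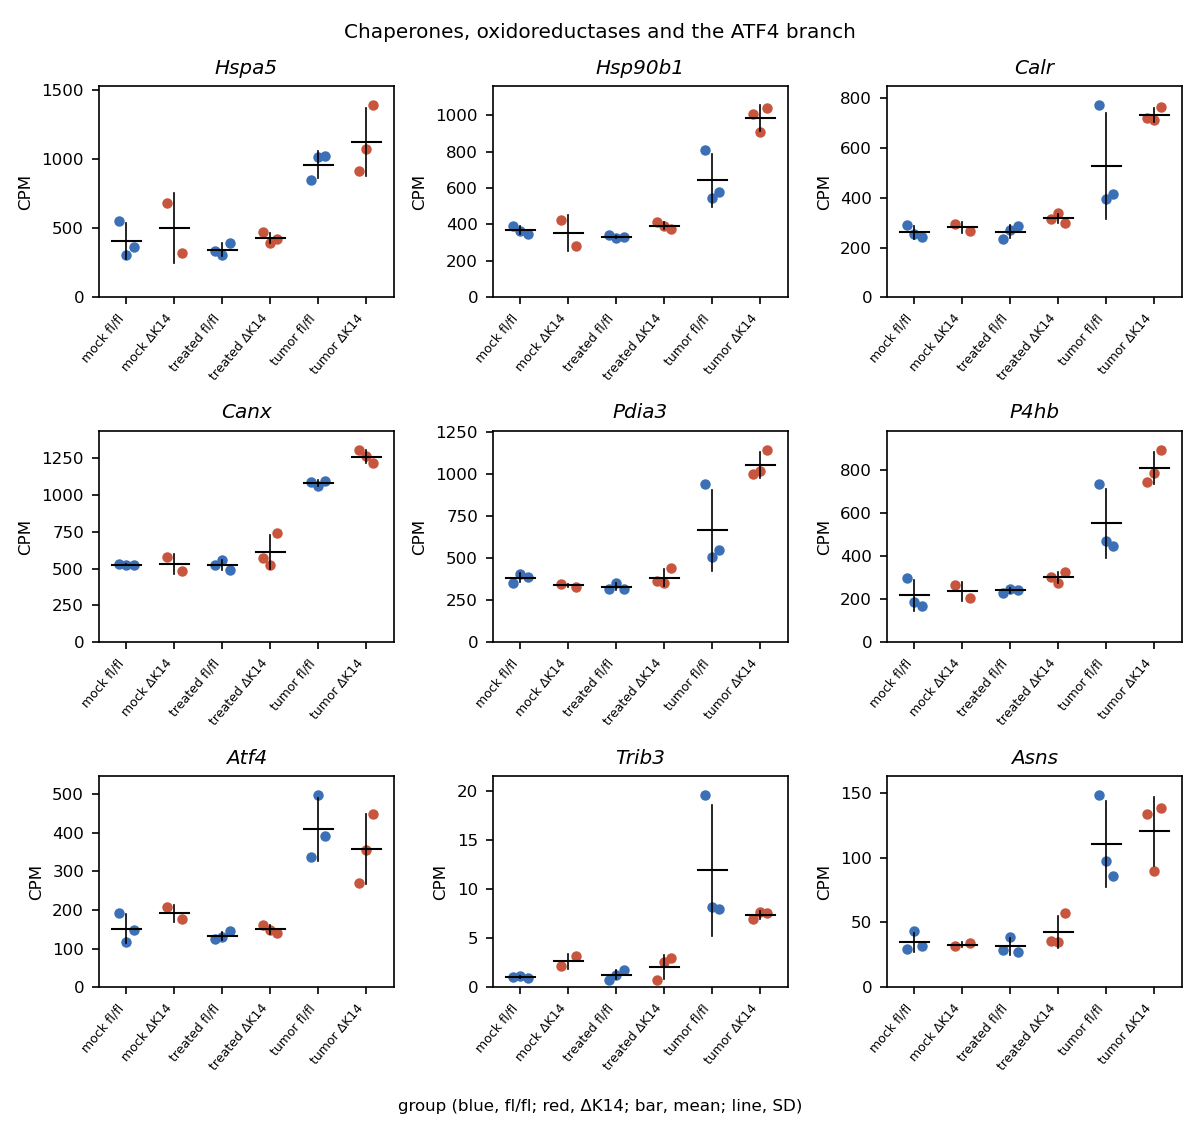
CPM of 9 genes in the 6 groups (x axis), with each library as a point (blue fl/fl, red ΔK14), the group mean as a bar and the SD as a line. Tumor points lie above treated points of the same genotype in all 9 genes, and fl/fl tumor 1 (first point of its group) is the highest of the fl/fl tumors for Hsp90b1, Calr, Pdia3 and P4hb.

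The lectin chaperones and oxidoreductases rose together in ΔK14 tumors, where 6 of 7 passed upward and Ero1lb passed downward. Calr and Canx encode calreticulin and calnexin, which hold glycoproteins by their trimmed sugars. Calr was at 235, 272 and 285 CPM in fl/fl treated skin and 772, 396 and 414 in fl/fl tumors (log2 fold change 1.005, SE 0.30, adjusted p = 0.043, edgeR). It was at 315, 337 and 299.8 and 722, 714 and 765 CPM in ΔK14 cells (log2 fold change 1.13, SE 0.17, adjusted p = 0.0021, edgeR). The fl/fl call rested on a wide spread, since fl/fl tumor 1 sat among the ΔK14 tumors while tumors 2 and 3 lay nearer to the treated libraries, and it held in 1 of 6 fits that left out 1 library. Canx showed no such split, at 1087, 1061 and 1096 CPM in fl/fl tumors against 524, 558 and 492 in treated skin (log2 fold change 1.05, SE 0.18, adjusted p = 0.0069, edgeR), and 1303, 1262 and 1215 against 569.5, 524 and 743 CPM in ΔK14 cells (log2 fold change 0.97, SE 0.19, adjusted p = 0.005, edgeR).

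Pdia3 (ERp57) is the disulfide isomerase that works with calnexin and calreticulin. It was at 366, 350.2 and 440.3 CPM in ΔK14 treated skin and 1004, 1019 and 1144 in ΔK14 tumors (log2 fold change 1.38, SE 0.17, adjusted p = 0.001, edgeR), and at 318, 353 and 320.0 and 943, 509 and 547 CPM in fl/fl cells (log2 fold change 1.02, SE 0.28, adjusted p = 0.032, edgeR). P4hb encodes protein disulfide isomerase itself and is also a subunit of the collagen prolyl 4-hydroxylase. It was at 301, 275 and 326 and 744, 785 and 889.8 CPM in ΔK14 cells (log2 fold change 1.34, SE 0.17, adjusted p = 0.001, edgeR) and at 229, 249 and 244 and 736, 467 and 448 CPM in fl/fl cells (log2 fold change 1.197, SE 0.24, adjusted p = 0.013, edgeR). Without 1 library, the fl/fl calls of Pdia3 and P4hb held in 1 and 2 of 6 fits, and both ΔK14 calls held in 6 of 6. Pdia4 was called in ΔK14 tumors (log2 fold change 1.02, adjusted p = 0.0027, edgeR) and Pdia6 rose there by less than the fold required (log2 fold change 0.84, adjusted p = 0.0051, edgeR). In fl/fl tumors both had 1 library above the other pair, with Pdia4 at 231, 144 and 139.6 and Pdia6 at 198, 155 and 145 CPM, and neither passed (adjusted p = 0.089 and 0.101, edgeR).

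The 2 oxidases that recharge protein disulfide isomerase went opposite ways. Ero1lb, the member, was at 9.18, 10.6 and 19.4 CPM in fl/fl treated skin and 1.91, 6.90 and 2.54 in fl/fl tumors (log2 fold change -1.69, SE 0.50, adjusted p = 0.044, edgeR). It was at 11.4, 16.0 and 8.0 and 2.45, 5.08 and 7.93 CPM in ΔK14 cells (log2 fold change -1.29, SE 0.44, adjusted p = 0.047, edgeR), and each tumor lay below each treated library of its genotype, in ΔK14 cells by a narrow gap. The calls held in 2 of 6 fits without 1 library in each genotype, and neither was made when all 17 libraries shared 1 fit. Ero1l, its paralog and no member of the list, was at 33.2, 28.2 and 35.8 CPM in fl/fl treated skin and 108, 90.1 and 88.4 in fl/fl tumors (log2 fold change 1.56, SE 0.20, adjusted p = 0.0027, edgeR). It reached 372, 346 and 446 CPM in ΔK14 tumors from 29.7, 41.4 and 44.7 in ΔK14 treated skin (log2 fold change 3.25, SE 0.22, adjusted p = 0.00017, edgeR). It was called higher in ΔK14 than in fl/fl tumors (log2 fold change 1.86, SE 0.20, adjusted p = 0.041, edgeR), a call that held in 1 of 6 fits without 1 library, and the difference of its tumor change between genotypes did not pass (log2 1.71, adjusted p = 0.068, edgeR).

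ER-associated degradation returns misfolded proteins to the proteasome, and its members moved little. Edem1, the lectin that picks mannose-trimmed clients, was at 103, 127 and 100.2 CPM in fl/fl and 128, 128 and 139.6 in ΔK14 tumors, above 72.3, 62.9 and 79.0 and 73.7, 82.3 and 81.7 in treated skin, and rose in both by less than the fold required (log2 fold changes 0.62 and 0.66, adjusted p = 0.037 and 0.012, edgeR). The ubiquitin ligase Syvn1 (HRD1), its adaptor Sel1l and Herpud1 passed in neither genotype. Their log2 fold changes in ΔK14 tumors were -0.32 (95% interval -1.01 to 0.36), 0.12 (-0.35 to 0.60) and 0.53 (-0.12 to 1.19). Syvn1, which carries the ER stress element, and Herpud1, which carries the shorter form, therefore did not pass where Hspa5 and Calr did. Of the genes that pass new chains through the membrane, Sec61b, a channel subunit, was called in both genotypes, at 56.7, 30.9 and 34.98 CPM in fl/fl tumors against 15.8, 17.2 and 21.9 in treated skin (log2 fold change 1.15, SE 0.30, adjusted p = 0.028, edgeR) and 56.4, 48.3 and 61.0 against 31.0, 17.5 and 23.6 CPM in ΔK14 cells (log2 fold change 1.13, SE 0.23, adjusted p = 0.0068, edgeR). Ssr1, of the translocon-associated complex, passed in both with log2 fold changes of 0.77 and 0.66.

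Trib3 and Asns, downstream of PERK and ATF4, were called higher in tumors of both genotypes. Trib3, a pseudokinase induced by ATF4, was at 0.774, 1.29 and 1.70 CPM in fl/fl treated skin and 19.5, 8.16 and 7.95 in fl/fl tumors (log2 fold change 3.20, SE 0.54, adjusted p = 0.0068, edgeR). It was at 0.712, 2.62 and 2.96 and 6.91, 7.62 and 7.55 CPM in ΔK14 cells (log2 fold change 1.71, SE 0.44, adjusted p = 0.017, edgeR), and the groups did not overlap in either genotype. Because Trib3 reached the low-count filter mainly through the tumors, its calls against treated or mock skin are no separate support for a rise. Asns, asparagine synthetase, was at 29.1, 39.0 and 26.9 and 148, 97.6 and 85.9 CPM in fl/fl cells (log2 fold change 1.81, SE 0.27, adjusted p = 0.0045, edgeR) and at 35.8, 35.2 and 57.0 and 134, 89.9 and 138 in ΔK14 cells (log2 fold change 1.43, SE 0.24, adjusted p = 0.0031, edgeR). Chac1, which degrades glutathione, stayed at or below 7.81 CPM and did not pass (adjusted p = 0.188 and 0.052, edgeR).

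Ppp1r15a encodes GADD34, which brings a phosphatase to eIF2α and so reverses the action of PERK, and its 3′ untranslated region holds the heptamer cluster shown above. It was at 82.1, 149 and 214 CPM in fl/fl mock skin and 63.7, 73.8 and 50.1 in fl/fl treated skin, with every treated library below every mock library. In tumors it was at 78.6, 80.2 and 65.8 CPM in fl/fl and 115, 139 and 135 in ΔK14, and every ΔK14 tumor was above every fl/fl tumor. It rose from treated skin to tumors in ΔK14 cells, from 65.5, 55.0 and 53.4 CPM (log2 fold change 1.08, SE 0.17, adjusted p = 0.0025, edgeR), in each of 6 fits without 1 library, and did not pass in fl/fl cells (log2 fold change 0.26, adjusted p = 0.345, edgeR). The difference between these changes was 0.83 on the log2 scale (SE 0.25), with an unadjusted p = 0.0062 and an adjusted p = 0.235 by edgeR, and so did not pass. Its constitutive counterpart Ppp1r15b was at 87.7, 226 and 192 CPM in fl/fl tumors and 128, 174 and 189 in ΔK14 tumors, and passed in no comparison.

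**Figure D4:**
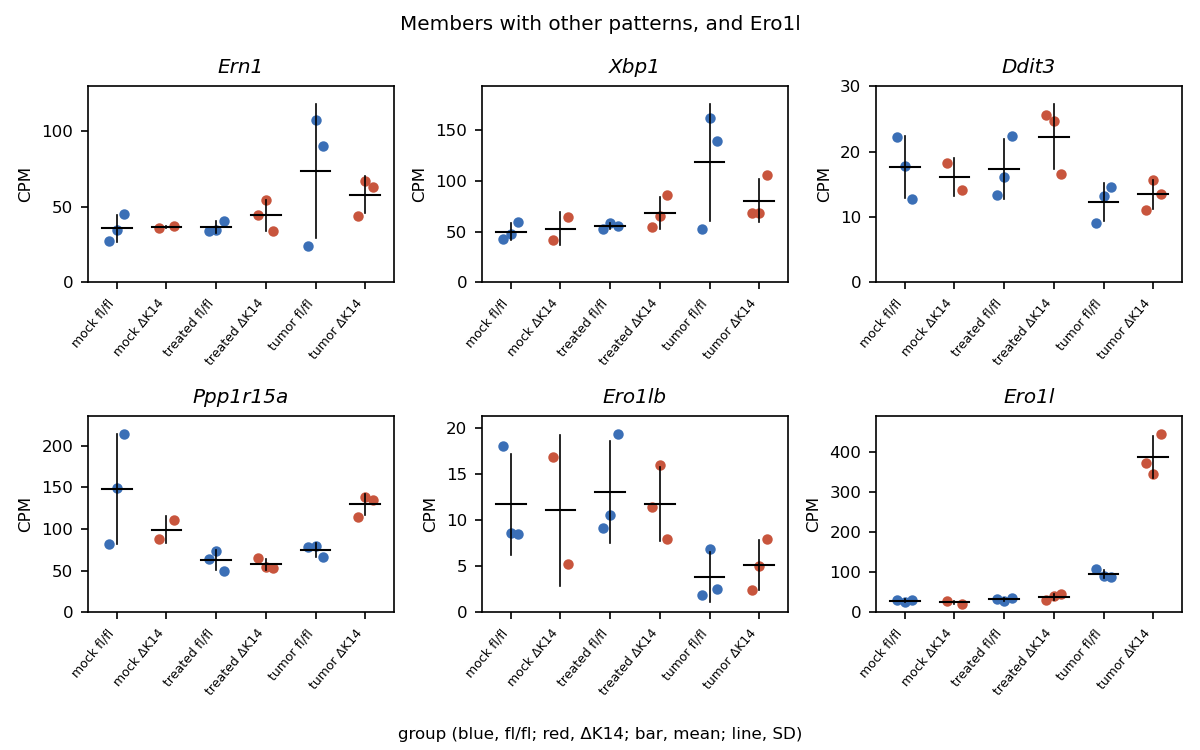
CPM of Ern1, Xbp1, Ddit3, Ppp1r15a, Ero1lb and Ero1l in the 6 groups (x axis), with each library as a point (blue fl/fl, red ΔK14), the group mean as a bar and the SD as a line. In fl/fl tumors Ern1 and Xbp1 have 1 low and 2 high points, Ero1lb is low in tumors, and Ero1l and Ppp1r15a are higher in ΔK14 than in fl/fl tumors.

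Against mock skin the same direction was seen with fewer calls. In ΔK14 tumors 11 of 34 members were called higher and 0 lower, beside 7.05% of 15027 genes called higher, with a median log2 fold change of 0.93: Hsp90b1, Dnajb11, Dnajc3, Calr, Canx, Pdia3, Pdia4, Pdia6, P4hb, Sec61b and Asns. In fl/fl tumors 4 of 34 were called higher and 0 lower, beside 2.22% of 15394 genes, with a median of 0.64: Atf4, Canx, Trib3 and Asns (log2 fold changes 1.43, 1.05, 3.52 and 1.68). With total counts the members called were 4 in ΔK14 and 2 in fl/fl tumors, and the calls over all genes moved from 1059 higher and 1085 lower to 856 and 1798 in ΔK14, and from 342 and 290 to 266 and 968 in fl/fl. With the replicate number added to the fit as a block, the counts were 0 in both genotypes. That block left 580 genes called higher in ΔK14 and 148 in fl/fl tumors. The counts also rested on single libraries. Without mock replicate 1 they were 9 higher and 1 lower in fl/fl, where 1477 and 1800 of 15636 genes were called. In ΔK14 cells that fit kept 1 mock library, and the median log2 fold change of the members was 1.18. Without any single ΔK14 tumor, and without fl/fl mock replicate 2 or 3 or fl/fl tumor 2 or 3, the count was 0. In those fits calls over all genes also fell, to 82 to 329 higher in ΔK14 and 21 to 67 higher in fl/fl cells. Mock replicate 1 is the library with high Krt25 and low Krt15 in each genotype. It had the highest mock level of Dnajb9, at 113, 37.2 and 38.4 CPM over the fl/fl mock libraries and 104 and 72.5 over the ΔK14 ones, and of Hspa5, at 553, 303 and 361 and 679 and 324 CPM. It had the lowest of Herpud1, at 37.4, 92.5 and 109.6 and 35.9 and 84.8 CPM. Every mock library was below every tumor for Hspa5. The cells behind these keratin levels, and their part in the values, were not tested.

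No member was called between treated and mock skin, in fits that called no gene at all and so say little about any single member. By edgeR, calls were 0 of 32 in fl/fl and 0 of 34 in ΔK14 cells, where 0% of all 16601 and 15891 genes were called. DESeq2 also called 0 members. Over all genes it called 101 higher and 17 lower of 16501 in fl/fl, and 36 and 35 of 13118 in ΔK14 cells. At an unadjusted p of 0.05 Ppp1r15a was lower in treated skin in both genotypes. Its log2 fold changes were -1.201 (SE 0.34, adjusted p = 0.703) in fl/fl and -0.82 (SE 0.26, adjusted p = 0.844, edgeR) in ΔK14 cells. It was the only member to reach that level, beside 913 of 16601 and 763 of 15891 genes. Without overlap between the groups, 1 member was higher and 5 were lower in fl/fl treated skin, beside 5.08% and 4.72% of all genes, and 7 were higher and 2 lower in ΔK14, beside 9.51% and 6.91%. Without fl/fl mock replicate 1, Ppp1r15a and Herpud1 were called lower in fl/fl treated skin (log2 fold changes -1.48 and -1.29, adjusted p = 0.0034 and 0.011, edgeR), in a fit that called 1363 genes higher and 1224 lower of 17103.

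The genotypes were compared within each condition, to ask what loss of Zfp36 did to these genes. DESeq2 called 0 members in each condition. Over all genes it called 2 higher and 1 lower of 15898 in mock skin, 22 and 14 of 16226 in treated skin and 198 and 168 of 12696 in tumors. By edgeR, no member was called in mock skin (0 of 33, beside 0% of 15920 genes), in treated skin (0 of 33, beside 0.00616% of 16232 genes) or in tumors (0 of 34, beside 0.0284% of 14067 genes). The count in mock skin carries no weight, since the same fit did not call the deleted gene itself (Zfp36, log2 fold change -4.13, adjusted p = 1.0, edgeR). At an unadjusted p of 0.05 there were 0 members in mock skin, 1 in treated skin and 1 in tumors. Over all genes, 253 of 15920, 901 of 16232 and 1975 of 14067 reached that level. The member in treated skin was Dnajb9, at 101, 89.8 and 72.5 CPM in ΔK14 against 38.9, 45.2 and 71.6 in fl/fl cells (log2 fold change 0.73, SE 0.26, adjusted p = 0.897, edgeR), and the member in tumors was Ppp1r15a (log2 fold change 0.64, SE 0.18, adjusted p = 0.232, edgeR). The levels of most members nevertheless leaned one way. In tumors 14 of 34 members had every ΔK14 library above every fl/fl library, where 15.3% of all genes did, and the median log2 fold change was 0.20 against -0.02 over all genes. All 9 chaperones and cofactors and all 7 lectin chaperones and oxidoreductases had fitted values above 0 in tumors, from 0.002 to 0.83 and from 0.06 to 0.50. All 4 degradation genes and 1 of 2 translocation genes were above 0 too. Only 2 of 7 sensors and transcription factors and 2 of 5 genes of the PERK-ATF4 output were. Over all genes tested the share above 0 was 48.3%. In treated skin 6 of 33 members lay apart in this way (Hspa5, Hsp90b1, Dnajb9, Dnajb11, Calr and P4hb), beside 5.96% of all genes, and the median was 0.19 against 0.02.

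Of the 14 members that lay apart in tumors, 10 had their highest fl/fl value in fl/fl tumor 1, and 4 did not (Edem1, Ppp1r15a, Sel1l and Canx). That library had low sebocyte markers and high Krt5 and Krt14, but the lowest Epcam and Cdh1 of the fl/fl tumors. Pdia3 was at 943, 509 and 547 CPM in the fl/fl tumors and 1004, 1019 and 1144 in ΔK14 tumors, and Hsp90b1 at 809.8, 543 and 576 and 1007, 907 and 1041. For both genes fl/fl tumor 1 was the fl/fl tumor nearest to the ΔK14 tumors. Canx was at 1087, 1061 and 1096 CPM in the fl/fl and 1303, 1262 and 1215 in the ΔK14 tumors, with the fl/fl tumors close together. Calr in fl/fl tumor 1 was above every ΔK14 tumor, so Calr was not among the 14. Trib3 went the other way, at 19.5, 8.16 and 7.95 CPM in fl/fl and 6.91, 7.62 and 7.55 in ΔK14 tumors (log2 fold change -0.80, SE 0.41, adjusted p = 0.414, edgeR). Of the leukocyte markers, Cd74 and H2-Ab1 were higher in every ΔK14 tumor than in any fl/fl tumor, and Ptprc was not. The part of sebocytes, or of the cells that held Cd74 and H2-Ab1, in these differences was not tested. The interval of the genotype difference in tumors allowed -0.42 to 0.55 for Hspa5 and -0.12 to 1.12 for Pdia3 on the log2 scale. The difference between genotypes in the change from treated skin to tumors was called for 0 of 34 members (0.0118% of 17017 genes), and in the change from mock skin to tumors for 0 of 34 (0% of 17388 genes), by edgeR. DESeq2 also called 0 members in both, while over all genes it called 101 higher and 129 lower of 15023 in the first and 15 and 16 of 14564 in the second. At an unadjusted p of 0.05 there were 3 members in the first (Eif2ak3, Creb3l2 and Ppp1r15a, all higher in ΔK14). In the second there were 3 as well (Dnajc3 and Ppp1r15a higher, Trib3 lower). Over all genes, 2243 of 17017 reached that level in the first and 1423 of 17388 in the second.

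**Figure D5:**
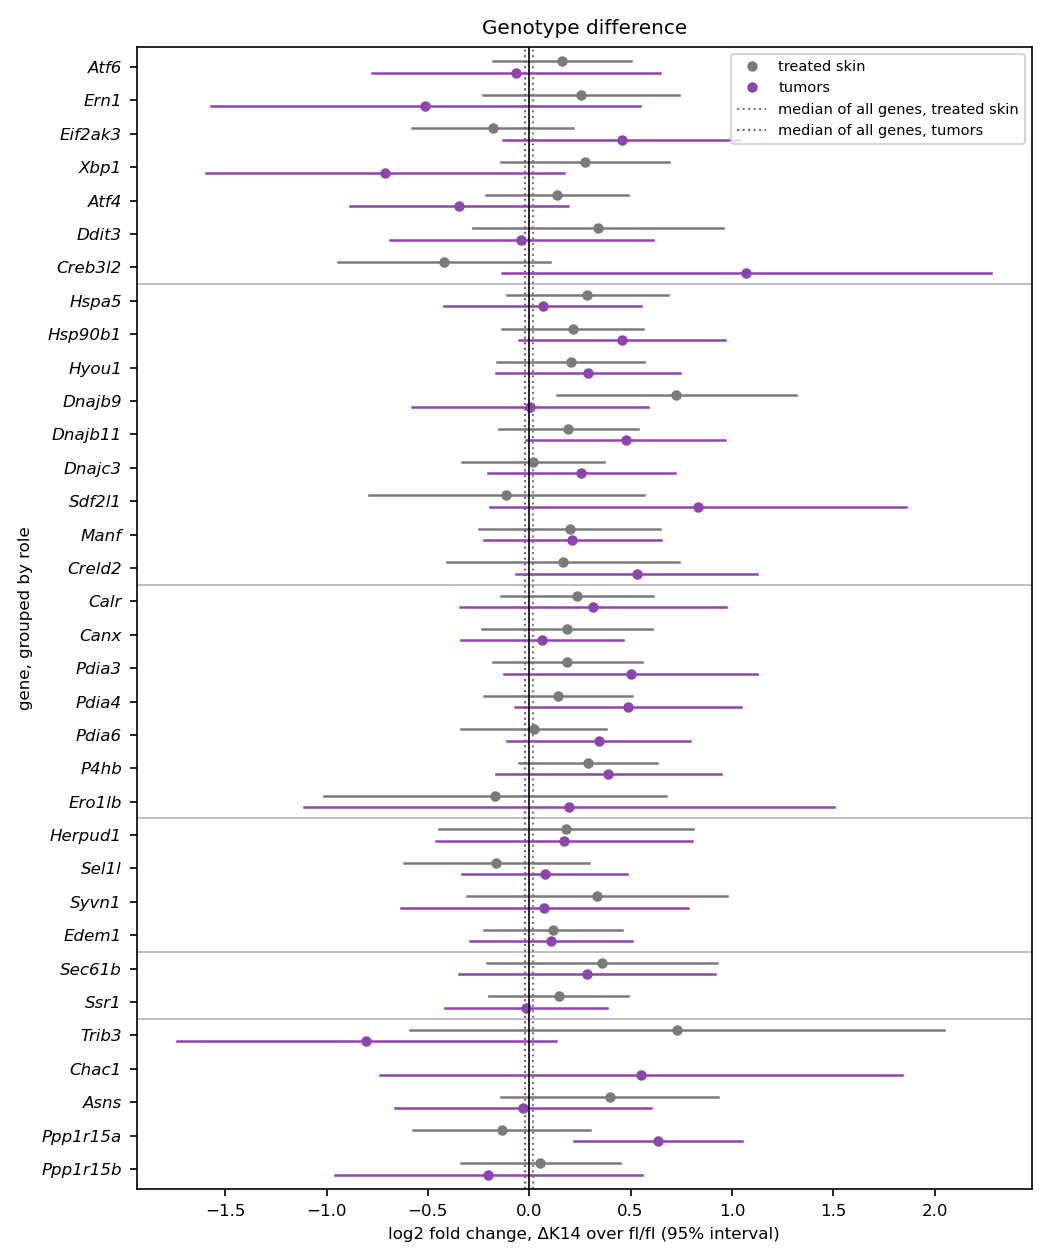
Log2 fold change of ΔK14 over fl/fl (x axis) for 34 genes (y axis, grouped by role) in treated skin (gray, 33 genes) and tumors (purple). Points are fitted values, bars are 95% intervals and dotted lines are the median of all genes. Most points lie to the right of 0 and most intervals include it.

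The other genes of these pathways, taken from lists of 28 further ER chaperones and oxidoreductases, 18 degradation genes, 29 translocation and N-glycosylation genes, 11 stress sensors and processing enzymes, 40 ATF4 target genes and 14 cytosolic and mitochondrial heat shock genes, were read in the same tests of tumors against treated skin. Over all genes, 17.6% passed upward in ΔK14 and 12.5% in fl/fl cells in these tests. Translocation and N-glycosylation genes passed upward in 23 of 29 cases in ΔK14 and 16 of 29 in fl/fl cells. None passed downward, and the medians were 0.72 in both. Ssr3, of the same complex as Ssr1, was among them, at 354, 346 and 374 CPM in ΔK14 tumors against 124, 119 and 163 in treated skin (log2 fold change 1.33, SE 0.17, adjusted p = 0.0011, edgeR). The heat shock genes outside the ER passed upward in 13 of 14 cases in ΔK14 and 9 of 14 in fl/fl cells, with medians of 1.19 and 0.83. Among them, the co-chaperone Bag3 was at 209, 202 and 233 CPM in ΔK14 tumors against 64.1, 52.9 and 59.6 in treated skin (log2 fold change 1.79, SE 0.16, adjusted p = 0.00032, edgeR), and the small heat shock protein gene Hspb1 reached 342, 339 and 415 CPM from 64.5, 72.5 and 86.6 (log2 fold change 2.22, SE 0.18, adjusted p = 0.00021, edgeR).

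The counts in this paragraph stand beside 17.6% of all genes passing upward in ΔK14 and 12.5% in fl/fl tumors. Of the 36 ATF4 target genes tested, 18 passed upward in ΔK14 and 13 in fl/fl tumors, with 0 downward and medians of 0.64 and 0.74. The cystine transporter gene Slc7a11 was at 198, 235 and 252 CPM in ΔK14 tumors against 12.3, 22.2 and 31.3 in treated skin (log2 fold change 3.31, SE 0.31, adjusted p = 0.00032, edgeR), and the mitochondrial folate enzyme gene Aldh1l2 at 28.5, 19.97 and 23.0 against 3.92, 4.45 and 4.70 CPM (log2 fold change 2.37, SE 0.25, adjusted p = 0.0005, edgeR). In fl/fl tumors the asparaginyl-tRNA synthetase gene Nars was at 253, 230.0 and 203 CPM against 82.3, 89.1 and 89.4 (log2 fold change 1.39, SE 0.17, adjusted p = 0.0025, edgeR). Degradation genes passed in 5 of 17 cases in ΔK14 and 6 of 17 in fl/fl cells, all upward, with the ubiquitin-conjugating enzyme gene Ube2j1 at 106, 174 and 196 CPM against 55.2, 47.6 and 41.7 in ΔK14 cells (log2 fold change 1.63, SE 0.25, adjusted p = 0.0021, edgeR). The further ER chaperones and oxidoreductases passed upward in 12 of 26 cases in ΔK14 and 10 of 26 in fl/fl cells, among them Erp44 in ΔK14 tumors (log2 fold change 1.21, adjusted p = 0.0019, edgeR) and Serp1 in fl/fl tumors (1.27, adjusted p = 0.0029). Of the stress sensors, Eif2ak4, which encodes the amino acid sensor GCN2, fell in both genotypes, from 46.8, 42.8 and 25.6 to 19.2, 14.2 and 16.0 CPM in ΔK14 cells (log2 fold change -1.31, SE 0.29, adjusted p = 0.0084, edgeR) and from 37.5, 35.5 and 44.2 to 10, 24.9 and 15.9 CPM in fl/fl cells (log2 fold change -1.18, SE 0.30, adjusted p = 0.026, edgeR).

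Members were last set beside their sequences. Of the 9 members with the ER stress element, 7 passed upward in ΔK14 tumors over treated skin and 1, Ero1lb, passed downward, with a median log2 fold change of 0.94. Of the 19 with a promoter window and neither form of the element, 13 passed upward and 1 downward, with a median of 1.06. In fl/fl tumors the counts were 4 up and 1 down of 9 (median 0.57) and 9 up and 0 down of 19 (median 1.02). Those called higher were 3 of 9 and 10 of 19 in ΔK14, and 3 of 9 and 7 of 19 in fl/fl tumors, and the difference between members with and without the element was not tested. For the AU-rich heptamer, the median genotype difference in tumors was 0.23 over the 12 members with it and 0.19 over the 22 tested members without it, and 0 of either were called.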

How the data were processed

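Sorted mouse keratinocytes were sequenced after amplification with the Ovation SoLo kit on an Illumina HiSeq instrument. The submitters' processing notes list Trimmomatic 0.36, STAR 2.5.3, HTSeq 0.9.1, DESeq2 and the build mm10, while strand, annotation release and removal of duplicate reads are not given in the sources used here. The authors deposited whole-number read counts per gene, not normalized, for 18 columns and 52636 genes. Of these, 2 mock ΔK14 columns were identical and were counted as 1 library.

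Counts were tested with edgeR 4.0.16 in R 4.3.3 (TMM, filterByExpr, the two-sided quasi-likelihood test), with each comparison fitted on its own groups and Benjamini-Hochberg adjustment over all genes tested. A gene passed at an adjusted p below 0.05 and was called where its fold change was also over 2. Standard errors came from the fold change and the F statistic. The tests were checked on simulated data. Alternatives were DESeq2 1.42.0, a single fit of all libraries, RLE normalization, no filter, no fold threshold, a replicate block, the identical columns as separate libraries and each library left out. Total-count scaling was added after seeing the data.

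The 35 genes and the other lists were chosen with earlier results of these data known. All 35 were named, with Zfp36, Ero1l and, from each further list, up to 2 called genes per direction with the smallest p. Markers were named where libraries stood apart. Promoters came from RefSeq (GRCm38.p6) and 3′ untranslated regions from the GENCODE annotation of the same build.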

Additional observations from a re-analysis of the deposited data

How the results depend on the processing

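Over the alternatives, 4838 values of single members were recomputed. Of these, 4343 kept their direction and side of the threshold, 79 gained a call and 137 lost it. Another 279 changed direction while called in neither fit, and 0 changed direction where either fit called them. Counts of called members changed as follows. For tumors against mock skin in fl/fl cells (4 called) they were 8 with DESeq2, 10 with a single fit of all libraries, 7 with no filter and 2 with total-count scaling, and 0 to 10 with 1 library left out. For ΔK14 (11 called) they were 4 with total-count scaling and 0 to 17 with 1 library left out. For tumors against treated skin they were 5 with total-count scaling and 6 to 12 with 1 library left out in fl/fl (11 called), and 24 with no fold threshold and 4 with total-count scaling in ΔK14 (15 called). Where 0 members were called, no filter gave 1 (Creb3l2) for the genotypes in tumors and 1 (Creb3l2) for the genotype difference in the change from treated skin, and leaving out 1 library gave 0 to 2 in both and 0 to 2 for treated against mock skin in fl/fl. Over all genes, calls between the genotypes in tumors went from 3 higher and 1 lower to 198 and 168 with DESeq2. They were 766 and 627 with no filter, and 1132 and 1481 without fl/fl tumor 1. For the genotype difference in the change from treated skin, no filter moved the calls over all genes from 2 higher and 0 lower to 437 and 566. The causes were not tested.

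The replicate numbers are shared between groups in the labels, which do not say what a number marks. With the replicate number as a block, the called members were 0 of 4 for tumors against mock skin in fl/fl, 0 of 11 in ΔK14, 7 against 11 for tumors over treated skin in fl/fl, and 15 in ΔK14. Between genotypes in mock skin the block called 78 genes higher and 32 lower against 0, Zfp36 among those lower, and 0 members. Between genotypes, deviations of same-numbered libraries correlated at 0.78 and 0.57 in mock skin, at -0.17, -0.13 and -0.55 in treated skin and at 0.14, 0.26 and -0.07 in tumors, so the numbers were not taken as pairs. Low levels limit Trib3, Chac1, Sdf2l1 and Ero1lb, which lay below 20 CPM in every library.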
